A study of Rattus norvegicus with 9 samples.

Results

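Histone genes were examined in rat pXEN cells, stem cell cultures of the primitive extraembryonic endoderm, which is the early lineage that lines the yolk sac. They were chosen by symbol (symbols beginning with Hist and a digit, H1f, H2af or H3f), which matched 35 of the 17315 genes in the deposited tables. Of these, 31 had at least 1 count in some library and are described here, namely 24 Hist genes and 7 variant genes. The other 4, H1foo, H2afj, H1fnt and H2afb3, had 0 counts in all 9 libraries. Beyond that 1 count, the symbol rule used no expression values. The genes were, however, chosen with earlier results of these data known.

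The 9 libraries came from 1 line, RX1, of the WKY strain, and 3 were made from each of 3 culture media (T 1 is replicate 1 of T, and so on). The T medium was the traditional one, DMEM/MCDB with 2% FBS, 0.5 µM Dexamethasone, β-mercaptoethanol, L-ascorbic acid, ITS, LA-BSA and, at 10 ng/ml, Pdgf, Egf and Lif, and these cells grew on fibronectin. LPE was serum-free, a DMEM/F12 and Neurobasal base with the N2 and B27 supplements and β-mercaptoethanol on Collagen I, and held Lif, Pdgf and Egf, every one at 10 ng/ml. CPE had the same base and coating with 10 ng/ml each of Pdgf and Egf and, instead of Lif, 1 µM Chir99021, a Gsk3 inhibitor. All groups therefore carried Pdgf and Egf, and any comparison with T mixes the loss of serum and dexamethasone with a new base and coating. The labels do not say that the libraries of a medium came from separate cultures, and the p-values therefore reflect only how far these libraries spread, possibly for technical reasons.

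Histones package DNA into nucleosomes, each wound around a core of H2A, H2B, H3 and H4, with the linker histone H1 on the DNA between cores. The Hist genes, most of which lie in clusters, are switched on when DNA is copied in S phase, and their mRNAs end in a stem-loop bound by the protein Slbp in place of a poly(A) tail. Variant genes stand alone, are mostly transcribed throughout the cell cycle and carry poly(A) tails. H2afx, which encodes the H2A variant phosphorylated at DNA breaks, is known to make both kinds of mRNA. Libraries selected for poly(A) largely miss the stem-loop mRNAs, whereas these libraries were made by removing ribosomal RNA and priming at random, so both kinds could be counted.

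Because many Hist genes are near-copies, RefSeq promoters are shown first for some of the called genes with a matched promoter. Each window (build GRCr8) runs from 250 bases before to 50 after the start. Promoters were matched for 26 of the 31 genes, 11 by symbol and 15 by a synonym that names 1 gene. None was matched for Hist1h2bh, Hist1h1d, Hist1h2bl and H2afx, whose symbols are synonyms shared by 2 genes. Hist2h4 had no promoter listed. The results for these genes therefore have no sequence beside them. Coordinates are those of GRCr8 and differ from the build of the counts. In each line capitals mark matches, on either strand, to any of 5 motifs searched: the H2B octamer ATTTGCAT, the CCAAT box (CCAAT), the TATA box (TATAAA), an E2F-type site (TTTGGCGC) and the H1 box (AAACACA). Hist1h1a and Hist1h1b are the linker H1 genes with the largest called differences. Hist1h2an and Hist1h2ail1 were called in LPE against both other media, and Hist3h2a shares its window with Hist3h2bb.
Hist1h1a: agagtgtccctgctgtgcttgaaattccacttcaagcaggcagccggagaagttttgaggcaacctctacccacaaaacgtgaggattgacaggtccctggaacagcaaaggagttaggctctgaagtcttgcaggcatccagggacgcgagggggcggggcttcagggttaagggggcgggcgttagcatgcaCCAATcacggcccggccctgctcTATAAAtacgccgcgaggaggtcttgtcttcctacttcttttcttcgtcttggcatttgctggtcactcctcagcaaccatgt
Hist1h1b: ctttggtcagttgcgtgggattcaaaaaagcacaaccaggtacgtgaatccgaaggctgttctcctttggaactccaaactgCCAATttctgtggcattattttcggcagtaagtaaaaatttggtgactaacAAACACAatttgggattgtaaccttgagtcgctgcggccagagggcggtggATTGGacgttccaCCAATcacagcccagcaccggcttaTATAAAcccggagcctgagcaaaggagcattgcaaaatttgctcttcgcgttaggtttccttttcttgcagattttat
Hist1h2an: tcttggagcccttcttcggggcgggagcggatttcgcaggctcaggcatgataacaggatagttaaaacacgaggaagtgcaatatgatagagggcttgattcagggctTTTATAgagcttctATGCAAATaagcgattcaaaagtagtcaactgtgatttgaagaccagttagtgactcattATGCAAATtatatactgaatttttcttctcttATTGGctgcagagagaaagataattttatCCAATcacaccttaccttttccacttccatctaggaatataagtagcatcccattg
Hist1h2ail1: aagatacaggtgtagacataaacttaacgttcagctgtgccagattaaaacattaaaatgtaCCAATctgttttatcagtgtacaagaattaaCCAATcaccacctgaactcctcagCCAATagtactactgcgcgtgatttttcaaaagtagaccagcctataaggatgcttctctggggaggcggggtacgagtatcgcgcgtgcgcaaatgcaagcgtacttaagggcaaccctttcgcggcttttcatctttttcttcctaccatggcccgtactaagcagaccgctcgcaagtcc
Hist3h2a: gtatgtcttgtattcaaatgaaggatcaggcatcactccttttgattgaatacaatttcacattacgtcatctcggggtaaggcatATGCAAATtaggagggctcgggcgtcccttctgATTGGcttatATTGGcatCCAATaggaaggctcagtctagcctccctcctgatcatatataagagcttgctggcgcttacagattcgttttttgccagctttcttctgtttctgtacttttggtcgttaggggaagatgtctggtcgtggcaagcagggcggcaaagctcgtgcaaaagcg
These windows are chr17:41794819-41795118 (minus strand), chr17:47421625-47421924 (plus strand), chr17:41962441-41962740 (plus strand), chr17:41997079-41997378 (minus strand) and chr10:44233033-44233332 (plus strand).

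A CCAAT box was found in 18 of the 20 Hist promoters, against 37.5% of all 33469 rat promoters of this length. The octamer was found in 8 of 20 (4 of 6 promoters named as H2B and 4 of 7 named as H2A) against 1.78% of all. It lay on the gene's strand in the H2B promoters and on the opposite strand in the H2A promoters. The TATA box was found in 12 of 20 against 14.2%. Its letters were counted at any position, for example at -232 to -227 on the opposite strand in Hist1h2af and at 32 to 37 in Hist3h3. The H1 box stood in 2 of 3 linker H1 promoters, Hist1h1b and the testis gene Hist1h1t but not Hist1h1a, against 6.99% of all promoters, and also in 1 H2A and 1 H2B promoter. The E2F-type letters were in 0 of 20 Hist promoters, against 0.493% of all. Among 6 variant promoters the octamer was in 1, that of H3f3b, CCAAT in 3 and the TATA box in 2. No matches to different motifs overlapped. Matches describe letters only. In 2 divergent gene sets the windows overlapped on opposite strands, by 283 bases for Hist3h2a and Hist3h2bb and by 261 bases for Hist1h2aa and Hist1h2ba, so the same sites are counted for both genes: 1 octamer and 3 CCAAT boxes in the first set, and 1 octamer, 4 CCAAT boxes, 2 TATA boxes and the H1 box in the second. The H1 box given above for 1 H2A and 1 H2B promoter is therefore a single site.

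The family of Hist1h2ail1 needs care. Its symbol names an H2A gene, but the letters that follow the first ATG after its RefSeq start match those of the H3 gene Hist2h3c2 at 31 of 33 bases and those of the H2A gene Hist1h2af at 14 of 33. The letters are shown from that ATG.
Hist1h2ail1: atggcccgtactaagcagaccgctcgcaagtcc
Hist2h3c2: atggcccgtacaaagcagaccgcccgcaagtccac
The gene is therefore called by its symbol here, and its family is uncertain. The H2A sum, which holds it by symbol, and the H3 sum, which leaves it out, are uncertain too.

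Reads assigned to genes ran from 1698764 to 2161228 in T, 3119049 to 3233526 in LPE and 3127352 to 4418465 in CPE, so 1 count was worth 0.227 to 0.579 CPM (counts per 1000000 gene reads, scaled by TMM factors). The share of reads mapping to several places, which enter no gene, was 64.9% to 67.6% in T, 54.2% to 59.9% in LPE and 51.7% to 58.2% in CPE. Reads shared by near-identical Hist copies are lost in this way, and a Hist gene's level may be understated. Endoderm markers were present in all media, with Gata4, Gata6, Sox17, Sox7, Pdgfra and Foxa2 summing to 2203 to 3132 CPM over the 9 libraries. Sox7 was low, at 8.73, 6.95 and 9.3 CPM in T 1 to 3. It had 1.28, 32.0 and 8.97 CPM in LPE 1 to 3 and 39.8, 35.0 and 24.5 in CPE 1 to 3. Of the 6, 2 were called higher and 1 lower in LPE against T, and 3 higher and 2 lower in CPE against T. In CPE against LPE, 1 was called lower. Of all genes, 29.7%, 32.1% and 17.8% were called in these comparisons. Of 5 fibroblast markers Col1a1 and Col3a1 had counts in T (summed level 1.39 to 31.3 CPM) while Col1a2, Dcn and Lum were at 0, and all 5 were at 0 in LPE and CPE. Of 3 pluripotency markers Nanog and Sox2 were at 0 throughout, and Pou5f1 had 99.2 to 327 CPM. Of the trophoblast markers, Cdx2 and Elf5 together reached 12 to 28.3 CPM in CPE, 0.465 to 0.579 in T and 0 in LPE. The part of such cells in the results was not tested.

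Over the 9 libraries, Hist genes took 0.487% to 0.804% of the gene reads and variant genes 0.18% to 0.357%. The 24 Hist genes held 152985 reads over the 9 libraries and the 7 variants 65419. Summed CPM of the Hist genes was 8059, 5257 and 7756 in T, 5067, 4898 and 4866 in LPE and 6213, 5626 and 6387 for CPE. Summed CPM of the variant genes was 3481, 3508 and 3524 in T, 2751, 2329.9 and 2681 in LPE and 2106, 1857 and 1809 for CPE. The variant sum separated the media without overlap, T highest and CPE lowest, with means of 3504 ± 21.9, 2587 ± 226 and 1924 ± 159 CPM (SD, n = 3 each). Most of this fall lay in H2afx, which is known to make both kinds of mRNA, with means of 1716, 1011 and 671 CPM. H3f3b did not follow the sum, with means of 718, 921 and 655 CPM. H2afx enters the ratio below as well. The Hist sum in CPE lay above that in LPE in every library, with means of 6075 ± 399 and 4943 ± 108 CPM, whereas T, at 7024 ± 1538, was split by 1 library. The ratio of the Hist to the variant sum was 2.32, 1.5 and 2.2 in T, 1.84, 2.1 and 1.81 in LPE and 2.95, 3.03 and 3.53 for CPE, highest in the 3 CPE libraries. No test was run on these sums. In bulk RNA, more cells in S phase and more histone mRNA per cell cannot be told apart.

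**Figure D1:**
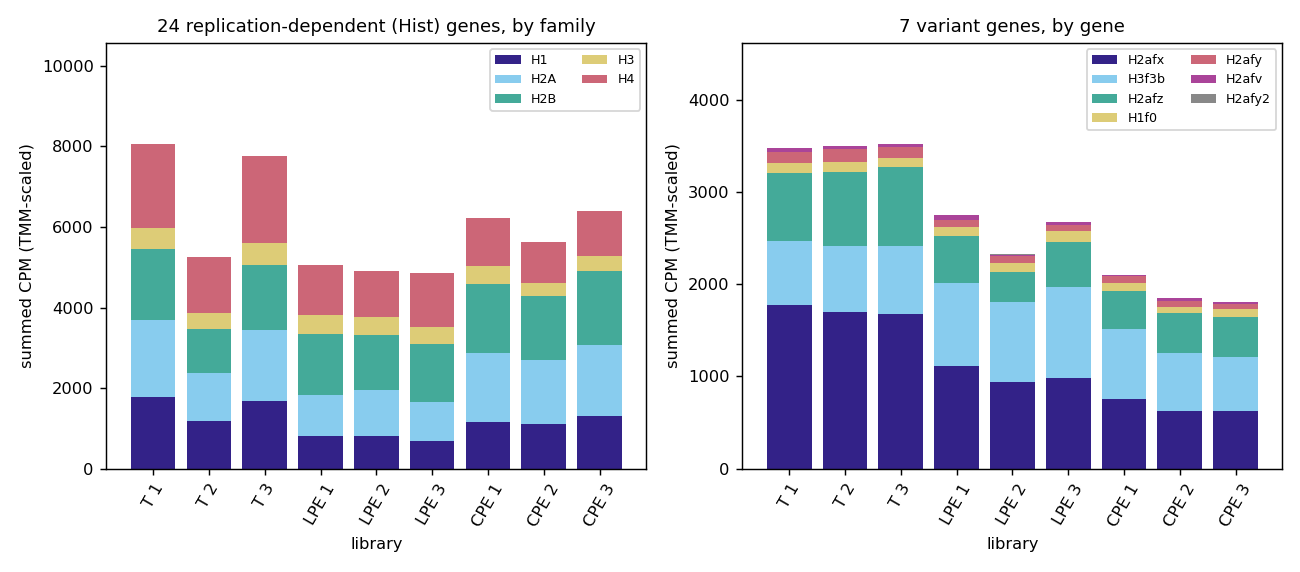
Summed TMM-scaled CPM per library, of the 24 Hist genes stacked by family (left) and of the 7 variant genes stacked by gene (right). Hist sums are 8059 in T 1 and 7756 in T 3, T 2 is at 5257, and the variant sums of the 3 T libraries lie between 3481 and 3524.

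By family, the H4 sum of 3 genes in CPM was 2075, 1389.8 and 2162 in T, 1244, 1134 and 1361 in LPE and 1183, 1011 and 1116 for CPE, above LPE and CPE in all T libraries. The linker H1 sum of 4 genes in CPM was 1779, 1179 and 1690.2 in T, 809.6, 812 and 697 in LPE and 1148, 1105 and 1311 for CPE, lowest in LPE. The H2B sum of 8 genes in CPM was 1752, 1092 and 1607 in T, 1525, 1374 and 1456 in LPE and 1724, 1601 and 1829 for CPE, so that T did not separate from LPE or CPE. The H2A sum of 7 genes by symbol in CPM was 1920.2, 1194 and 1762 in T, 1015, 1127 and 950.3 in LPE and 1712, 1588 and 1763 for CPE, and CPE lay above LPE in every library. The H3 sum, of 2 genes, in CPM was 533, 402 and 535 in T, 474, 450.4 and 401 in LPE and 446, 322 and 368 for CPE, with overlap between all media. This overlap depends on the family given to Hist1h2ail1, which had 272, 166 and 233 CPM in T, 59.1, 67.4 and 46.2 in LPE and 346, 323 and 387 for CPE. Counted as H3, it would put LPE below both other media.

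T 2 was lower than the other T libraries in most Hist genes and in none of the variant genes tested. Hist genes took 0.534% of gene reads in T 2, against 0.804% in T 1 and 0.772% in T 3. Of the 23 Hist genes tested, 21 were lowest in T 2 among the T libraries, and 0 of 6 variants were, beside 39.7% of all 9130 genes tested. The ratio of T 2 to the mean of T 1 and T 3 had a median of 0.658 over the Hist genes (range 0.396 to 1.19), 1.01 over the variants and 0.984 over all genes tested. The 2 Hist genes that were not lowest there were Hist3h3 and Hist2h2ab, both of low count. T 2 also had the fewest gene reads and the largest share of reads mapping to several places (67.6%, against 66.6% and 64.9%), and the highest levels of the fibroblast markers Col1a1 (12.6, 21.4 and 0.465 CPM in T 1 to 3) and Col3a1 (1.64, 9.84 and 0.93), and the part of these in the low Hist counts was not tested. For each comparison with T, the counts of Hist and variant genes called and the Hist medians are therefore given with and without T 2. Single genes are given so only in part.

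**Figure D2:**
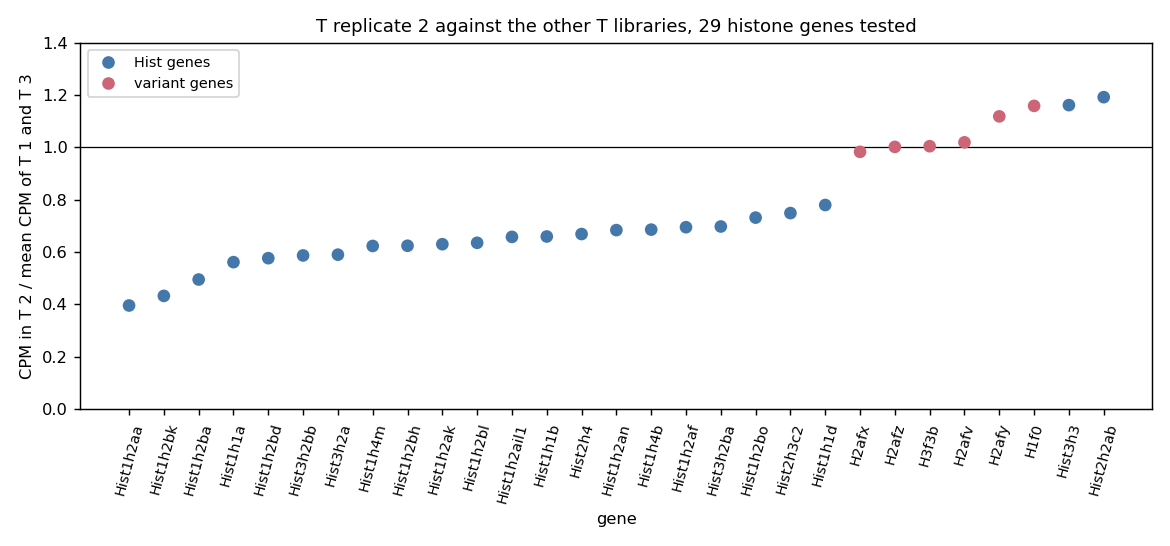
CPM in T 2 divided by the mean CPM of T 1 and T 3 (y axis) for the 29 histone genes tested, in rising order (x axis), Hist genes in blue and variants in red. Of the Hist genes 21 lie between 0.396 and 0.780, while the 6 variants lie between 0.983 and 1.16.

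Among the genes outside the histones whose pattern over the 9 libraries came closest to the mean log2(CPM + 2) of the tested Hist genes were Med6 (Pearson r = 0.957, n = 9), Upf2 (0.934), Rpl41 (0.928) and Rpl23 (0.923). Med6 encodes a Mediator subunit, Upf2 a factor of nonsense-mediated decay, and Rpl41 and Rpl23 ribosomal proteins. These 4 were lowest in T 2 among the T libraries, Rpl41 for example at 2782, 1921 and 2635 CPM in T 1 to 3. The libraries share media, and the values are given as a description.

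LPE against T set the serum-free base and the new coating, without dexamethasone, against the traditional medium, with the 3 growth factors kept. The linker genes Hist1h1a and Hist1h1b, 3 genes named as H2A and the H4 genes Hist2h4 and Hist1h4m fell, as did 2 H2B genes, while 2 other H2B genes rose. Among the 23 Hist genes tested, 11 were called, 2 of them up and 9 down, and 12 were not (edgeR's quasi-likelihood test, adjusted p under 0.05), where 29.7% of all 9130 genes were called, 15% higher and 14.7% lower. The median log2 fold change of these Hist genes was -0.49, beside -0.03 for all genes tested. Their 3 LPE libraries lay below the 3 T libraries for 10 genes and above for 4, beside 25.4% and 21.9% of all genes (47.3% in either direction). Without T 2, 1 rose and 10 fell, beside 10.5% and 9.54% of all genes (20.1% in all), and the median moved to -0.67. Without T 3, 7 Hist genes were called, 1 higher and 6 lower, where 20.2% of all genes were. Of 6 variants tested, 1 was called higher and 3 lower, and without T 2 these counts were 0 and 3.

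CPE against T asked the same with Chir99021 in place of Lif as well. Hist1h1a, Hist1h2af, Hist1h1d and the H4 genes Hist2h4 and Hist1h4m fell, while Hist1h2bh and Hist1h2ail1 rose. Of 23 Hist genes 7 were called, 2 up and 5 down, where 32.1% of all genes were called, 16.8% higher and 15.3% lower. Their median log2 fold change was -0.28, beside -0.01 for all genes. The CPE libraries lay below T for 8 Hist genes and above for 3, beside 28.1% and 26.2% of all genes (54.4% in either direction). Without T 2, 1 rose and 8 fell, beside 12% and 10.4% of all genes (22.3% in all), with a median of -0.44. Without T 1, 5 Hist genes were called (22.3% of all genes), without CPE 2 also 5 (25.7%) and without T 3, 6 (22%). These 3 counts are near the share of all genes. Of 6 variants tested, 3 were called, all lower, and 3 were also called lower without T 2. The share of Hist genes called, 30.4%, was close to that of all genes.

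CPE against LPE, which share base and coating and do not involve T 2, compared Chir99021 with Lif. Of 23 Hist genes 7 were called, 6 of them higher in CPE and 1 lower, where 17.8% of all genes were called, 9.56% higher and 8.23% lower. All 6 that rose belonged to the Hist1 cluster (6 of 16 tested) and the 1 that fell, Hist3h2a, to the Hist3 cluster. Their median was -0.07, beside 0.01 for all genes. CPE lay above LPE for 6 Hist genes and below for 4, beside 16.8% and 14.5% of all genes (31.3% in either direction). With T 2 left out of the shared fit the counts were again 6 and 1, beside 8.3% and 6.85% of all genes (15.1% in all). Without LPE 3, 4 Hist genes were called, where 15.7% of all genes were, and without CPE 3 also 4, where 14.1% were, so that these counts are near the share of all genes. Of 6 variants tested, 2 were called, both lower in CPE. The 3 comparisons share libraries and are not separate evidence.

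**Figure D3:**
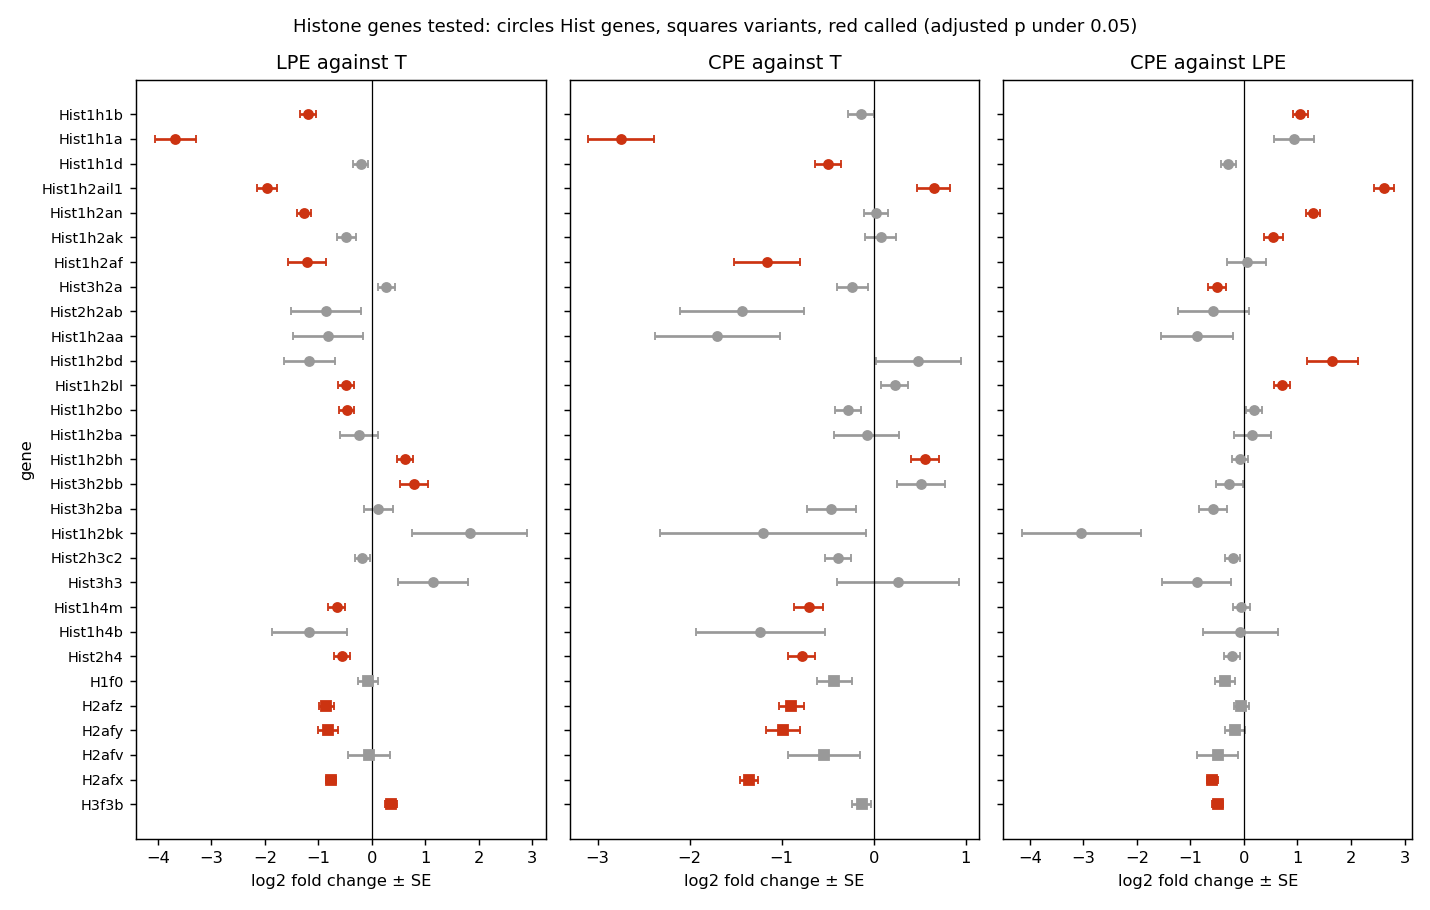
Log2 fold change ± SE from the edgeR fit (x axes) of the 29 histone genes tested (y axis) in the 3 comparisons, circles for Hist genes, squares for variants, red where the adjusted p was under 0.05. Hist1h1a lies farthest to the left in both comparisons with T, and Hist1h2ail1, Hist1h2an and Hist1h1b are lower in LPE than in both T and CPE.

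Linker H1 genes, whose proteins bind the DNA that enters and leaves the nucleosome, gave the largest fall. Hist1h1a had 230.3, 122 and 205 CPM in T 1 to 3, 9.59, 25.5 and 8.33 in LPE 1 to 3 and 20.3, 32.5 and 30.3 in CPE 1 to 3. All T libraries stood above all others, and LPE 2 was higher than the other LPE libraries. The fall was 12.8-fold in LPE (log2 fold change -3.68, SE 0.38, adjusted p = 4.05e-06) and 6.69-fold in CPE (log2 fold change -2.74, SE 0.36, adjusted p = 3.02e-05), and the log2 fold changes were -3.91 and -2.97 without T 2. Without LPE 2 the fall in LPE was 20.4-fold. CPE and LPE did not pass the test against each other (adjusted p = 0.101), but did without LPE 2 (log2 fold change 1.62, SE 0.33, adjusted p = 0.00319) or with no low-count filter (adjusted p = 0.0452).

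Hist1h1b, another linker gene and the one with the most reads, had 1118, 727 and 1086 CPM in T 1 to 3, 418, 463 and 404 in LPE 1 to 3 and 838, 826 and 1005 in CPE 1 to 3. LPE was lowest without overlap, and T and CPE overlapped. It was 2.28-fold lower in LPE than in T (log2 fold change -1.19, SE 0.14, adjusted p = 1.87e-05) and 2.08-fold higher in CPE than in LPE (adjusted p = 0.000103), while CPE and T did not pass the test (adjusted p = 0.509). Hist1h1d, also a linker gene, had 429, 320.2 and 392 CPM in T 1 to 3, 382, 324 and 284 in LPE 1 to 3 and 289.6, 245 and 274 in CPE 1 to 3. CPE was 1.41-fold below T (adjusted p = 0.0125), a call lost without T replicate 1 (0.0762), T replicate 3 (0.0516) or CPE replicate 2 (0.058) (adjusted p in parentheses). Hist1h1t, the linker gene of spermatocytes, was not tested for low counts: T 1 to 3 held 3, 17 and 15 counts, the LPE libraries 0 and CPE 0, 5 and 5. Set against 3 counts per library, it was at least 6.47-fold lower in LPE, which covers counting error only.

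H2A proteins pair with H2B on the nucleosome surface. Among genes named as H2A, Hist1h2an and Hist1h2ail1 shared the pattern of Hist1h1b. Hist1h2an had 745, 486 and 678 CPM in T 1 to 3, 277, 260.2 and 256 in LPE 1 to 3 and 674, 614 and 658 in CPE 1 to 3. Its LPE libraries lay close together and below all others. It was 2.41-fold lower in LPE than in T (log2 fold change -1.27, SE 0.14, adjusted p = 5.16e-06) and 2.45-fold higher in CPE than in LPE (log2 fold change 1.30, SE 0.13, adjusted p = 7.4e-06). Hist1h2ail1, of uncertain family as shown above, had 272, 166 and 233 CPM in T 1 to 3, 59.1, 67.4 and 46.2 in LPE 1 to 3 and 346, 323 and 387 in CPE 1 to 3. The 3 media did not overlap, in the order LPE, T, CPE. It was 3.89-fold lower in LPE than in T (log2 fold change -1.96, SE 0.19, adjusted p = 2e-06) and 6.11-fold higher in CPE than in LPE (log2 fold change 2.61, SE 0.19, adjusted p = 1.6e-07). Its 1.57-fold rise in CPE over T (adjusted p = 0.0102) was lost without T replicate 2 (0.0591). Over the 9 libraries Hist1h2an correlated with Hist1h1b at r = 0.978 and with Hist1h2ail1 at r = 0.966, the highest values among 253 Hist gene comparisons whose median was 0.260.

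The other genes named as H2A lay nearer the threshold. Hist1h2ak had 380.3, 240.3 and 383 CPM in T 1 to 3, 221, 289 and 213 in LPE 1 to 3 and 356, 312 and 391 in CPE 1 to 3. It was 1.46-fold higher in CPE than in LPE (adjusted p = 0.0366), a call lost without LPE replicate 1 (0.0992), LPE replicate 3 (0.116), CPE replicate 1 (0.085) or CPE replicate 3 (0.127) (adjusted p in parentheses), while the log2 fold change stayed at 0.47 to 0.54 (0.55 with all libraries). In LPE against T it narrowly missed the threshold (adjusted p = 0.0504), and it passed without T replicate 2 (0.00642) or LPE replicate 2 (0.0173), and also with either-strand counts (0.0486), library totals (0.0403), no low-count filter (0.0231) or DESeq2 (0.0426). Hist3h2a had 430.0, 244 and 398 CPM in T 1 to 3, 424, 475 and 399 in LPE 1 to 3 and 312, 310.0 and 293 in CPE 1 to 3. It was lower in CPE than in LPE (1.42-fold, adjusted p = 0.0421), and the call was lost without T replicate 3 (0.0503), LPE replicate 1 (0.0715), LPE replicate 2 (0.0984), LPE replicate 3 (0.0577), CPE replicate 1 (0.0877), CPE replicate 2 (0.1), or without CPE replicate 3 (0.116), adjusted p in parentheses, while the log2 fold change stayed at -0.55 to -0.43 (-0.50 with all libraries). In CPE against T it was called only without T 2 (1.36-fold lower, adjusted p = 0.0179). Hist1h2af had 58.9, 32.4 and 34.4 CPM in T 1 to 3, 16, 16.5 and 21.8 in LPE 1 to 3 and 18.3, 14.5 and 23.5 in CPE 1 to 3, T above both other media throughout. Its falls, 2.31-fold in LPE (adjusted p = 0.0193) and 2.24-fold in CPE (adjusted p = 0.0222), were lost without T replicate 1 (0.179) or LPE replicate 1 (0.0533) for LPE and without T replicate 1 (0.197), CPE replicate 1 (0.0504) or CPE replicate 2 (0.0821) for CPE. Hist1h2aa and Hist2h2ab, at most 23.7 and 15.1 CPM in any library, were not called by edgeR in any comparison with all 9 libraries in 1 fit. In CPE against T, Hist1h2aa was called lower by DESeq2 (adjusted p = 0.0373), in edgeR with only these media fitted (0.0367) and without LPE 2 (0.0438), and Hist2h2ab with only these media fitted (0.0407).

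H2B genes went in both directions. Hist1h2bh had 456, 281 and 444 CPM in T 1 to 3, 672, 566 and 584 in LPE 1 to 3 and 593, 548 and 597 in CPE 1 to 3. Every LPE and CPE library stood above every T library. It was 1.54-fold higher in LPE (log2 fold change 0.62, SE 0.15, adjusted p = 0.00511) and 1.47-fold higher in CPE (log2 fold change 0.56, SE 0.15, adjusted p = 0.00989), and 1.35-fold and 1.29-fold without T 2, where both calls held. Hist3h2bb, the divergent neighbour of Hist3h2a, had 43.1, 25.5 and 43.7 CPM in T 1 to 3, 72.6, 69 and 53.2 in LPE 1 to 3 and 57.5, 49.3 and 54.1 in CPE 1 to 3. It was 1.73-fold higher in LPE than in T (adjusted p = 0.0323), a call lost without T replicate 1 (0.06), T replicate 2 (0.161), T replicate 3 (0.0546) or LPE replicate 1 (0.0804). Hist3h2a, which shares its window, was not called in LPE against T (adjusted p = 0.235).

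Hist1h2bl had 721, 428 and 626 CPM in T 1 to 3, 446, 393 and 429 in LPE 1 to 3 and 701, 639 and 738 in CPE 1 to 3. CPE lay above LPE in every library, by 1.64-fold (log2 fold change 0.71, SE 0.15, adjusted p = 0.00329). LPE was 1.4-fold lower than T (adjusted p = 0.0217), with T 2 inside the LPE range, and this call was lost without T replicate 1 (0.145), T replicate 3 (0.083), LPE replicate 2 (0.067) or LPE replicate 3 (0.0541), and with only these media fitted (0.0551). Hist1h2bo had 397, 282 and 374 CPM in T 1 to 3, 242, 247 and 274 in LPE 1 to 3 and 262, 278 and 329 in CPE 1 to 3, and was 1.38-fold lower in LPE than in T (adjusted p = 0.0208), which was lost without T replicate 1 (0.116), T replicate 3 (0.0964) or LPE replicate 1 (0.0658). In CPE it was called lower than T only without T 2 (adjusted p = 0.0478). Hist1h2bd had 26.2, 15.1 and 26 CPM in T 1 to 3, 10.2, 14.6 and 5.13 in LPE 1 to 3 and 20.9, 25.7 and 48 in CPE 1 to 3. It was 3.14-fold higher in CPE than in LPE (adjusted p = 0.0226), and was not called without LPE replicate 3 (0.0684) or CPE replicate 3 (0.14) or with only these media fitted (0.0633). In LPE against T it was called lower only without LPE 2 (0.0292). The remaining H2B genes, Hist3h2ba, Hist1h2ba and Hist1h2bk, were not called by edgeR in any comparison, but DESeq2 called Hist1h2bk lower in CPE than in LPE (adjusted p = 0.0202). Hist1h2bk had 1 to 33 counts per library, with 7.35, 5.91 and 10.6 CPM in LPE 1 to 3 and at most 3.72 CPM elsewhere.

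The H4 genes Hist2h4 and Hist1h4m, whose protein pairs with H3, fell in both serum-free media. Hist2h4, the Hist gene with the most reads over the libraries, had 1413, 994 and 1560.0 CPM in T 1 to 3, 885, 808 and 1010.3 in LPE 1 to 3 and 883, 678 and 748 in CPE 1 to 3. T 2 lay within the LPE range. It was 1.47-fold lower in LPE (log2 fold change -0.55, SE 0.15, adjusted p = 0.00963), a call lost without T replicate 3 (0.0692), and 1.72-fold lower in CPE (log2 fold change -0.78, SE 0.15, adjusted p = 0.000785). Hist1h4m had 629, 374 and 572 CPM in T 1 to 3, 344, 324 and 329.8 in LPE 1 to 3 and 279.9, 328 and 359 in CPE 1 to 3, T above the rest throughout. It was 1.58-fold lower in LPE (adjusted p = 0.00532) and 1.63-fold lower in CPE (adjusted p = 0.00302). Hist1h4b, at 1.24 to 32.7 CPM, was not called by edgeR in the 3 comparisons with all 9 libraries in 1 fit, but was called lower in CPE against T with only these media fitted (adjusted p = 0.049) or without LPE 2 (0.047). The H3 genes Hist2h3c2 and Hist3h3 were not called in any either, although Hist2h3c2, at 528, 396 and 529 CPM in T 1 to 3, 467, 435 and 381 in LPE 1 to 3 and 436, 316 and 360.4 in CPE 1 to 3, missed the threshold narrowly in CPE against T (adjusted p = 0.0505) and passed it, lower in CPE, without T replicate 2 (0.0187) or CPE replicate 1 (0.0186), and also with library totals (0.0483), no low-count filter (0.0297) or DESeq2 (0.0416).

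Shares within the Hist sum, which do not depend on how far all Hist genes moved together, are given here for 7 genes. Hist1h2bh took 5.66, 5.34 and 5.73% in T, 13.3, 11.6 and 12% in LPE and 9.55, 9.75 and 9.34% for CPE. Hist1h1b took 13.9, 13.8 and 14% in T, 8.25, 9.45 and 8.31% in LPE and 13.5, 14.7 and 15.7% for CPE. Hist1h2an took 9.24, 9.25 and 8.74% in T, 5.46, 5.31 and 5.26% in LPE and 10.8, 10.9 and 10.3% for CPE. For these 3 genes the T libraries lay close together, T 2 among them, and apart from those of LPE. Hist1h1a took 2.86, 2.32 and 2.64% in T, 0.189, 0.52 and 0.171% in LPE and 0.328, 0.577 and 0.474% for CPE, and Hist1h2ail1 3.38, 3.16 and 3.0% in T, 1.17, 1.38 and 0.949% in LPE and 5.56, 5.75 and 6.06% for CPE. Hist3h2a took 5.34, 4.65 and 5.14% in T, 8.36, 9.7 and 8.2% in LPE and 5.02, 5.51 and 4.59% for CPE, LPE being above the others. Hist2h4 took 17.5, 18.9 and 20.1% in T, 17.5, 16.5 and 20.8% in LPE and 14.2, 12.1 and 11.7% for CPE, CPE being below the others. In LPE, Hist1h1a had a share in LPE 2 well above that in the other LPE libraries. Over all 24 Hist genes, the shares in LPE lay above those in T for 7, below for 6 and overlapped for 11. In CPE against T they lay above for 7, below for 8 and overlapped for 9, and in CPE against LPE above for 5, below for 11 and overlapped for 8. Such shares were not computed for other genes, so these counts have no background of their own. By CPM, 47.3%, 54.4% and 31.3% of all genes tested did not overlap in the same 3 comparisons. The counts are therefore not read as a result about the Hist genes. A share rises when other members fall, and these values carry no test.

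**Figure D4:**
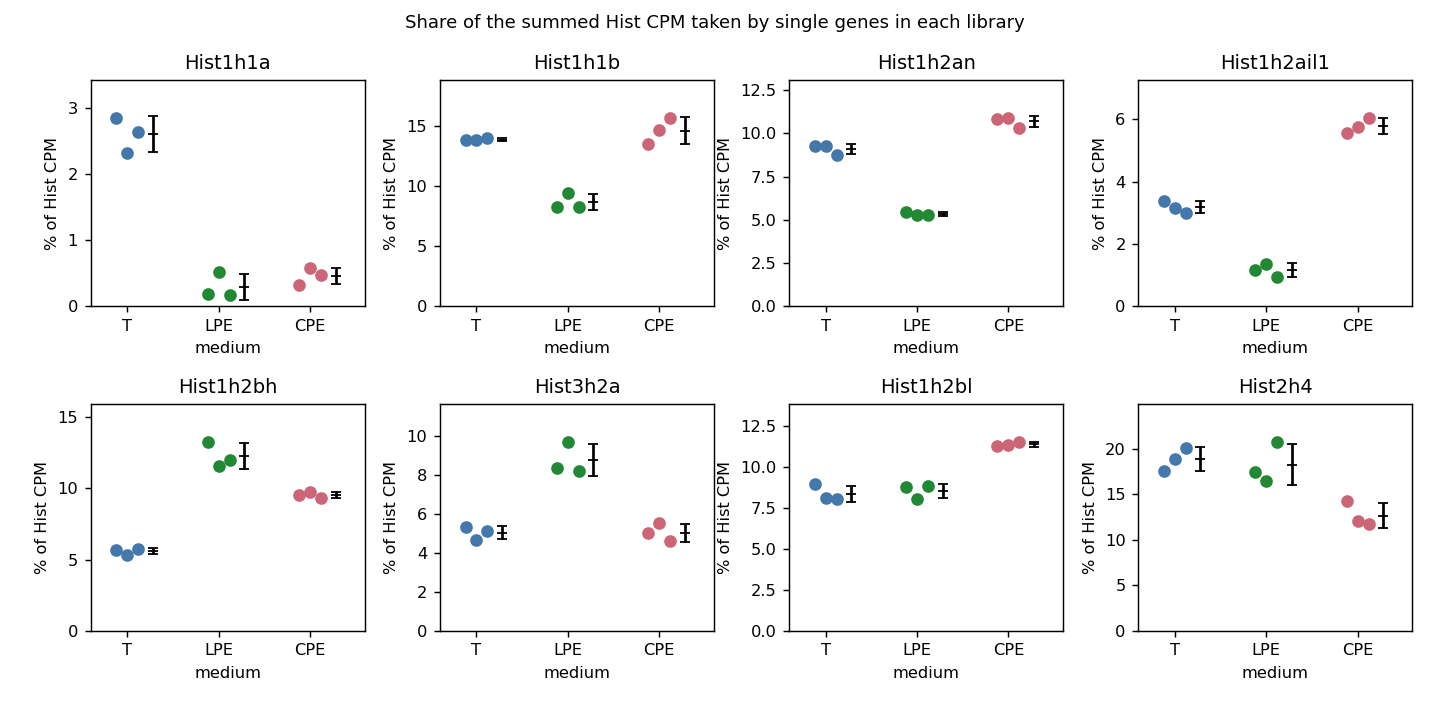
Share of the summed Hist CPM (y axes, percent) taken by 8 Hist genes in each library (coloured points), with the mean and SD of the 3 libraries of a medium in black. Hist1h2bh stands at 5.58% in T, 12.3% in LPE and 9.55% for CPE, while Hist1h1a in LPE 2 stands above the other LPE libraries.

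Variant genes showed no drop in T 2. H2afx, the DNA damage variant, had 1774, 1697 and 1679 CPM in T 1 to 3, 1111, 941 and 979 in LPE 1 to 3 and 761, 625 and 626 in CPE 1 to 3. The media fell into 3 separate ranges. It was 1.7-fold lower in LPE (log2 fold change -0.76, SE 0.10, adjusted p = 3.89e-05), 2.56-fold lower in CPE against T (log2 fold change -1.36, SE 0.10, adjusted p = 1.36e-07) and 1.51-fold lower in CPE than in LPE (log2 fold change -0.59, SE 0.10, adjusted p = 0.000685). H2afz, which encodes the H2A variant placed around promoters, had 736, 801 and 864 CPM in T 1 to 3, 511, 336 and 488 in LPE 1 to 3 and 415, 434 and 444 in CPE 1 to 3. T lay above the other media, and LPE 2 was the lowest library. It was 1.8-fold lower in LPE (log2 fold change -0.85, SE 0.14, adjusted p = 0.000238) and 1.86-fold lower in CPE (log2 fold change -0.89, SE 0.14, adjusted p = 0.000125). H2afy, which encodes macroH2A, a variant with a large extra domain, had 122, 134 and 119 CPM in T 1 to 3, 69.7, 76.8 and 65.1 in LPE 1 to 3 and 72.8, 63.4 and 52.8 in CPE 1 to 3. It was 1.77-fold lower in LPE (adjusted p = 0.00363) and 1.98-fold lower in CPE (adjusted p = 0.000883).

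H3f3b, which encodes the replacement H3 laid down outside S phase, had 699.5, 719.8 and 734 CPM in T 1 to 3, 907, 863 and 994 in LPE 1 to 3 and 751, 633 and 581 in CPE 1 to 3. LPE lay above both other media. It was 1.28-fold higher in LPE than in T (log2 fold change 0.36, SE 0.11, adjusted p = 0.0177), a call lost without T replicate 1 (0.0774), T replicate 2 (0.0503), T replicate 3 (0.0502) or LPE replicate 3 (0.0786), and 1.41-fold lower in CPE than in LPE (log2 fold change -0.49, SE 0.11, adjusted p = 0.00409). H1f0, the linker variant known from slowly dividing and differentiated cells, had 107, 116 and 93 CPM in T 1 to 3, 97.2, 88.6 and 115 in LPE 1 to 3 and 88.2, 65.6 and 80.5 in CPE 1 to 3 and was not called in any comparison (adjusted p = 0.833 in LPE against T, 0.0975 in CPE against T and 0.207 in CPE against LPE). H2afv, a close relative of H2afz, ran from 17.1 to 55.6 CPM and was not called either. H2afy2, a second macroH2A gene, had counts in 3 libraries only, 24 in LPE 2, 2 in T 1 and 1 in T 3, and was not tested. Cenpa, the centromeric H3 outside the symbol rule, had 44.8 ± 5.07, 40.8 ± 15.5 and 40.3 ± 23.7 CPM (T, then LPE, then CPE) and was not called.

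Counting on either strand gave nearly the same values. For 28 of the 31 genes the either-strand count equalled the sum of both strand counts, and it was under 0.9 of that sum for 0 of 31, beside 3.06% of all 12532 genes with reads. The exceptions were H2afy2, at 0.907 of the sum, and Hist1h2aa and Hist1h2an, short by 1 read each. Over all 9 libraries 17.2% of the reads at Hist2h2ab and 7.60% at H2afv lay on the other strand, and 50% at H2afy2. For all genes together this was 0.822% to 0.986% per library.

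Genes that make and handle histone mRNA and protein moved in both directions. Every gene said here to have risen or fallen passed the same edgeR test. Of 20 tested genes of histone mRNA processing and turnover (31 listed), 5 rose and 3 fell in LPE against T, 4 rose and 3 fell in CPE against T, and 1 rose in CPE against LPE, beside 29.7%, 32.1% and 17.8% of all genes called. Without T 1 or without T 3, 4 were called in either comparison with T, where 20.2% to 22.3% of all genes were. Without LPE 3, 5 were called in LPE against T (26.7% of all genes), and in CPE against LPE 2 were called without LPE 1, LPE 3 or CPE 3 (14.1% to 17.3% of all genes). Slbp, which binds the stem-loop, was not called in any comparison, at 126 ± 3.57 CPM in T, against 163 ± 28.2 in LPE and 136 ± 20.3 for CPE (SD, n = 3 each). Npat, the activator of Hist gene transcription, fell 1.61-fold in CPE against T, from 204 ± 10.6 to 127 ± 33.4 CPM (adjusted p = 0.0103), but was not called in LPE. Pou2f1, which encodes the octamer-binding factor Oct1, rose 2.91-fold in LPE and 2.12-fold in CPE against T, from 16.4 ± 2.58 CPM. Sympk, a scaffold of the 3' end cleavage complex, rose 1.92-fold and 2.0-fold, and Snrpg, a core protein of small nuclear RNPs, fell 2.7-fold and 1.82-fold. Cstf2 rose 1.6-fold in CPE against LPE, and Ncbp1, the cap-binding protein gene, fell 2.35-fold in CPE against T.

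Of 27 histone chaperone genes, 10 rose and 5 fell in LPE against T, 10 rose and 7 fell in CPE against T, and 4 rose and 3 fell in CPE against LPE, beside 29.7%, 32.1% and 17.8% of all genes called in either direction. Chaf1b, a subunit of the complex that loads H3 and H4 onto new DNA, fell 2.55-fold in LPE and 2.3-fold in CPE, from 98.4 ± 6.62 CPM in T. Vps72, which binds the H2afz product, rose 2.51-fold and 2.52-fold, from 15.5 ± 1.8 CPM. Supt6h, an elongation chaperone, rose 2.49-fold and 2.02-fold, and Nap1l4 fell 1.73-fold in LPE. Rbbp7, a histone-binding subunit of many chromatin complexes, was 5.63-fold higher in CPE than in LPE, at 2632 ± 765 against 467 ± 90.9 CPM, and 3.51-fold higher than in T. Set, a chaperone and phosphatase inhibitor, fell 1.85-fold in CPE against T and 2.04-fold against LPE. Without T 2, 9 of these genes were called in LPE against T in place of 15, where 20.1% of all genes were. In CPE against LPE 4 were called in place of 7 without LPE 1 (17.3% of all genes) or without LPE 3 (15.7%).

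Among 31 S phase regulators 6 rose and 8 fell in LPE against T, 4 rose and 9 fell in CPE against T, and 3 rose and 4 fell in CPE against LPE, beside 29.7%, 32.1% and 17.8% of all genes called in either direction. Their median log2 fold changes were -0.12, -0.28 and -0.25, beside -0.03, -0.01 and 0.01 for all genes. Pcna, the sliding clamp of replication, was not called in any comparison, at 242 ± 22.7 CPM in T, against 301 ± 29 in LPE and 237 ± 30.3 for CPE. Rrm2, which makes deoxynucleotides, fell 3.74-fold in CPE against LPE, where the Hist sum was higher. It was 3.08-fold higher in LPE than in T. Cdc45, a helicase factor, was called lower in LPE than in T, with 10.4, 12.2 and 12.1 CPM in T 1 to 3 and 2.88, 0 and 0 in LPE 1 to 3, so that no fold is given. Ccne1, the cyclin of S phase entry, fell 2.53-fold in LPE and 3.01-fold in CPE against T, from 153 ± 8.48 CPM. E2f1, a transcription factor of S phase entry, fell 5.25-fold in CPE against T, to 10.2 ± 2.98 CPM. Uhrf1, which guides maintenance methylation after replication, rose 5.26-fold in LPE and 3.9-fold in CPE against T, from 69 ± 19 CPM.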

How the data were processed

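RNA sequencing counts of 9 libraries were used as deposited. The libraries were depleted of ribosomal RNA and made with random primers and a directional kit, then read at both ends for 101 cycles, per the labels' protocols. STAR 2.5.1, Trimmomatic 0.33, CASAVA 1.8.2 and DESeq2 are named, with build rn6, per the submitters' processing notes; which annotation was counted is not given there. The tables the authors deposited give raw read counts per gene in 3 columns (either strand, first-read strand, opposite strand), of which the last was used as the gene-strand count. The 4 summary lines stayed out of library sizes, and gene reads were 7.96% to 14.8% of all reads.

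The test was that of edgeR 4.0.16, run in R 4.3.3 (quasi-likelihood F test, all 9 libraries, a mean per medium, TMM factors, filterByExpr with at least 10 counts and 15 in total, 9130 genes), with Benjamini-Hochberg adjustment over all of them and calls under 0.05. The SE is the log2 fold change over the root of its F. The method was tested on simulated data. Members and lists were chosen with earlier results of these data known, and the motifs after the counts were seen. Genes were named where they were called in a comparison or were among the 5 of their class with the most reads, and from the other lists up to 2 of the largest rises and falls with at least 5 CPM, plus Slbp, Npat and Pcna; some that these rules pick are given only in counts or are not reported here. Others named (Hist2h3c2, Hist1h1t, Hist1h2bk and other low or uncalled members) were chosen after their values were seen. Alternatives were either-strand counts, DESeq2 size factors, library totals, DESeq2 1.42.0, no filter, only the media compared, a replicate block and each library left out. Sequences are RefSeq's.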

Additional observations from a re-analysis of the deposited data

Results flagged for a closer look

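Reads on the strand opposite to the gene were left out of the main fit and entered only the alternative with either-strand counts. In their highest library, 18 histone genes had more of them than the 3 counts that a count of 0 allows. H2afy2 had 16 in LPE 3, where its own strand had 0. Hist2h2ab had 24 in CPE 2, where its own strand had 30. H2afy reached 39 (own strand 279, CPE 2) and H2afv 16 (own strand 62, CPE 1). Hist2h3c2 reached 15, Hist1h2af and Hist1h2bh 11 each, Hist3h2bb 10 and H1f0 8. Hist1h2bo, Hist2h4 and H2afz reached 7 each, Hist1h1d, Hist1h2an, Hist1h1b, Hist1h2ak and H2afx 5 each, and Hist1h2bl 4. The limit covers counting error only, and the source of these reads was not tested.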

How the results depend on the processing

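For the 29 tested histone genes in 3 comparisons, fold changes under the 16 alternatives kept their side of the threshold 1324 times. They lost the call 43 times, gained it 24 times and never reversed where either fit gave a call. The 1324 include changes of direction between fits without a call. For example, the log2 fold change of H2afv in LPE against T ran from -0.43 to 0.31, and that of Hist1h2an in CPE against T from -0.13 to 0.15. The companion lists were added to the alternatives after seeing the data. Leaving out each library in turn gave 7 to 13 Hist genes called in LPE against T, where 20.1% to 30.5% of all genes were called. It gave 5 to 9 in CPE against T (22% to 37.1% of all genes) and 4 to 7 in CPE against LPE (13.8% to 18.7%). The same fits gave 4 to 8, 4 to 7 and 1 to 2 processing genes in LPE against T, CPE against T and CPE against LPE. They gave 9 to 15 and 4 to 7 chaperone genes in LPE against T and CPE against LPE. In CPE against LPE, 2 processing genes were called with DESeq2 size factors, the DESeq2 test or no low-count filter, in place of 1. Of all genes, 871 were then higher and 768 lower (of 9130), 1033 and 901 (of 10525), and 904 and 789 (of 11920). Fitting only the media compared called 3 chaperone genes in CPE against LPE in place of 7, where 593 of 8797 genes were higher and 510 lower. With DESeq2 size factors the variant sum in T was 3482 CPM in place of 3504. These causes were not tested. Same-numbered libraries did not deviate together (correlations of -0.0283 to 0.00998), so the numbers do not pair them. With a replicate block, 4 Hist genes in place of 7 and 2 processing genes in place of 1 were called in CPE against LPE. With that block 811 of all 9130 genes were higher and 689 lower, so that the Hist count is near the share of all genes. The Hist calls lost were Hist3h2a (adjusted p = 0.0533), Hist1h2bd (0.052) and Hist1h2ak (0.0575). The block also brought Hist2h3c2 under the threshold in CPE against T (0.0319). Low counts limit Hist1h1t, Hist1h2bk, Hist2h2ab, Hist3h3 and H2afy2, and reads shared by near-identical copies are not counted.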
